A study of Mus musculus with 2 samples.

Results

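Hair follicle stem cell genes are described here in the epidermis of mice with and without IκBζ in keratinocytes. They are 10 genes chosen by name (Cd34, Krt15, Nfatc1, Lhx2, Sox9, Tcf7l1, Lgr5, Lgr6, Lrig1 and Plet1) out of 18206 named genes on the array. Every non-control probe whose RefSeq accession belongs to one of them was used, which gave 15 probes on 24 spots. Peeled epidermis of Nfkbiz flox/flox mice gave the control array, and peeled epidermis of Nfkbiz flox/flox; K5-cre mice gave the knockout array. The floxed Nfkbiz alleles are shared by both groups, and the Cre recombinase of the knockout group is driven by the keratin 5 promoter, so loss of IκBζ is limited to cells in which that promoter is or was active. Skin was taken in the steady state and incubated for 30 min at 37 °C in 3.8% ammonium thiocyanate before the epidermis was pulled off the dermis. Age, hair cycle stage, the number of mice behind each RNA and the depth of follicle that came away with the sheet are not given in the sources used here.

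The mouse hair follicle keeps its stem cells in the outer layer below the sebaceous gland. Cells of the bulge express Cd34, Krt15, Lhx2, Sox9, Nfatc1 and Tcf7l1 and rest for most of the hair cycle, while cells of the lower bulge and hair germ express Lgr5 and start new hair growth. Above the bulge, the isthmus and the junctional zone hold other progenitors, which express Lgr6, Lrig1 and Plet1 and serve the sebaceous gland and upper follicle. Several of these genes are also active outside the follicle, among them Krt15 in basal epidermis and Cd34 in blood vessels.

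With 1 array per genotype there is no replicate check and no test, and a gene is called by size alone, at 2-fold. The error after ± is the standard error that the scanner's own error model gives for a log2 difference, and it covers technical error within these arrays. Differences are knockout minus control on the log2 scale, after each array was scaled to its 75th percentile of probe signal, which was 194 for the control and 226 for the knockout. Of all probes, 56.2% and 56.3% stood well above background, no spot was saturated, and the keratins of basal and suprabasal epidermis (Krt5, Krt14, Krt1 and Krt10) had signals between 26300 and 80200 on both arrays. Nfkbiz, read by 1 probe, had signals of 3100 and 1760 (log2 difference -1.04 ± 0.20). No source used here says whether that probe lies in the deleted part, so it does not check the genotype.

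After scaling, the knockout array had lower signals for the stem cell genes measured on both arrays, and the size differed widely between them. Among the 9 genes measured on both, 3 were at least 2-fold lower (Plet1, Lhx2 and Cd34) and 0 at least 2-fold higher, while 4.39% of the 12396 genes measured on both were that much lower and 3.03% that much higher. At 1.5-fold 6 of the 9 were lower, beside 13.2% of all genes, and at 3-fold 2 of the 9, beside 1.52%. Lgr5, well above background on the control array alone, was lower by its bound. The median difference of the 9 genes was -0.81, beside -0.04 over all genes, and it was -0.73 without Plet1. All 9 were below 0 at the probe that stands for the gene, as were 53.8% of all genes. Of their 14 probes measured on both arrays, 13 were lower, and 1 of Nfatc1 was higher (0.41). The balance over all genes rests on the scaling: higher genes made up 40.9% of those at least 2-fold apart under the 75th percentile, 78.5% under the median and 50.1% under quantile normalization. Scaling by the median moved every gene by 0.35, so that 8 of 9 members were below 0 while the median over all genes was 0.31. Under it 3 of 9 members were at least 2-fold lower, beside 2.27% of all genes. The distance between the median member and the median gene was -0.77 under the 75th percentile and the median alike, as it must be where every gene moves by the same amount. It was -0.51 under normexp background correction, which adds an offset of 50 to each signal. In this bulk tissue, fewer cells of a kind and less RNA per cell cannot be told apart.

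**Figure D1:**
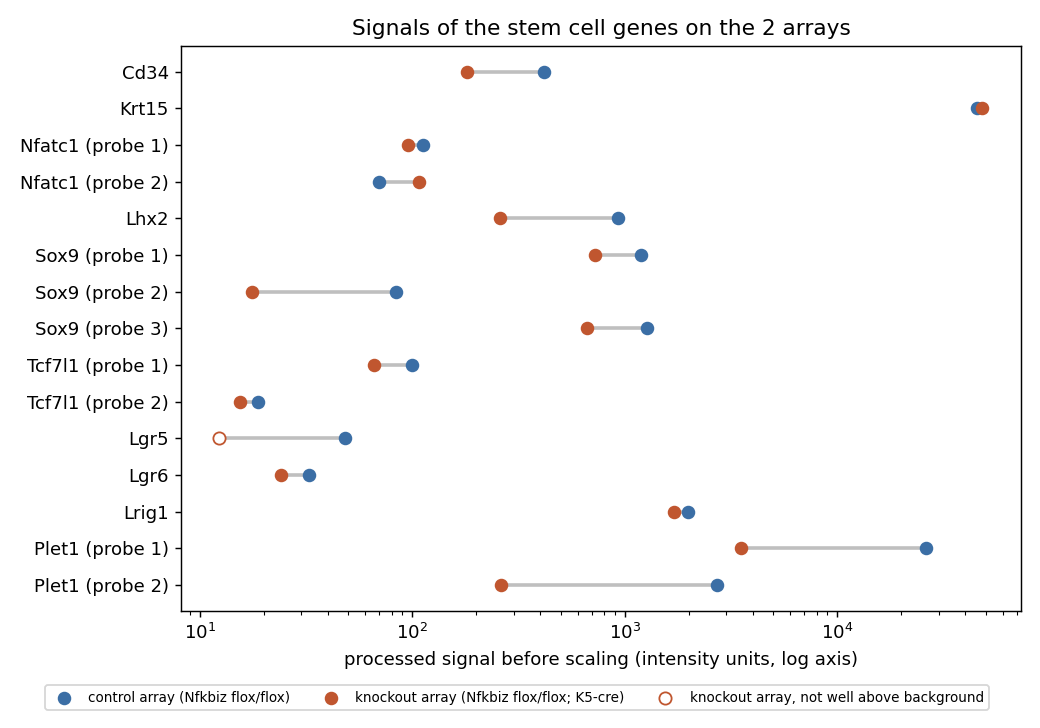
Processed signal of each probe of the 10 genes on both arrays (log axis, before scaling; a line joins the 2 signals of a probe, and the open circle is a signal not well above background). Both Plet1 probes have the widest gaps, from 26300 to 3520 and from 2730 to 262, while the Krt15 points nearly coincide at 45600 and 48200.

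Sequences upstream of the start sites are shown for the 3 measured genes with differences of at least 2-fold and for Tcf7l1. Each is the 250 bases before an annotated start, 5′ to 3′ on the gene's strand, from RefSeq (GRCm38.p6). Windows of 6 of the 10 genes were searched, and among these only Tcf7l1 had a match to a transcription factor motif. No window was at hand for Krt15, Sox9 and Lgr5, and Nfatc1 was left out of the search. For Lhx2, 1 of its 2 windows is shown. Capitals mark motif matches.
Plet1, chr9:50494275-50494524, plus strand: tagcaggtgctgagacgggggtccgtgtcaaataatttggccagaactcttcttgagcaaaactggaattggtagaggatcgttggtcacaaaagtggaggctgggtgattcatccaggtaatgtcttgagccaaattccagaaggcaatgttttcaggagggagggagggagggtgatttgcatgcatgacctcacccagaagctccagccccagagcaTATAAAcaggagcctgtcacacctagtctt
Lhx2, chr2:38339031-38339280, plus strand: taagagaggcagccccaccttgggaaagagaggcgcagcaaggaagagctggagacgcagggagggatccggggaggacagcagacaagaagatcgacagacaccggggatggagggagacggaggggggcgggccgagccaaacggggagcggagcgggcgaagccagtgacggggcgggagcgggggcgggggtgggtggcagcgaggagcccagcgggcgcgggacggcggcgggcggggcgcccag
Cd34, chr1:194938571-194938820, plus strand: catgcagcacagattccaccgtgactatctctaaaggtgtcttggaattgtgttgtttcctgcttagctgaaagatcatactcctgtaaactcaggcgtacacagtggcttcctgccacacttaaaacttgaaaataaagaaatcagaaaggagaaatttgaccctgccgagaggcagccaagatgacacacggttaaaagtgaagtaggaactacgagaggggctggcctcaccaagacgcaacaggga
Tcf7l1, chr6:72789046-72789295, minus strand: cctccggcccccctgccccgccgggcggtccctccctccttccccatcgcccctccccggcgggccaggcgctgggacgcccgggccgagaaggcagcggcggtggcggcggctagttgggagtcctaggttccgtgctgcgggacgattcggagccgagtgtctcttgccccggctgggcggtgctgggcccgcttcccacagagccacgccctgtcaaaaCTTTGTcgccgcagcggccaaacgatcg

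Motifs were searched on both strands as CTTTGA for TCF/LEF factors, ACAAAG for SOX factors, TAATTA for LIM homeobox factors and the NF-κB consensus. The reverse complement of the SOX core shares its first 5 letters with the TCF/LEF core. Over 32851 windows of the same length, 13.8% held the TCF/LEF letters, 16.5% the SOX letters, 4.84% the homeobox letters and 1.41% the NF-κB letters. In the windows of the 6 genes, the only match was a SOX core on the reverse strand of Tcf7l1, 28 to 23 bases before the start. A TATA box (TATAAA), added after the sequences were seen, stood 30 to 25 bases before the Plet1 start and was found in 12.4% of all windows. The windows differed in composition, with 50% G and C in Plet1, 46.4% in Cd34 and 72.8% in the Lhx2 window shown, against a median of 52.4% over all windows. A match is a description of letters and not of a bound site.

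Cd34 encodes a sialomucin on the surface of mouse bulge stem cells. Its signal was 416 in control and 181 in knockout epidermis (log2 difference -1.42 ± 0.21, 2.68-fold lower). The knockout signal was lower, and the difference ranked 248 from the lowest of 12396 genes. Cd34 stayed at least 2-fold lower under each of the 9 alternative settings run for it, between -1.44 and -1.07. It has 1 probe on 1 spot, so the settings that choose or average probes could not change its value. It was at -1.07 under median scaling, -1.13 with normexp, -1.42 under quantile normalization and -1.44 under cyclic loess.

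Because Cd34 is also made by endothelium and some dermal cells, markers of those cells were read beside it. Pecam1, Cdh5, Kdr and Tie1, 4 of the 13 endothelial markers, were not well above background in either genotype. Of the 5 measured on both, 3 were at least 2-fold lower: Vwf, the von Willebrand factor gene, with signals of 236 and 52.0 (-2.40 ± 0.22), Plvap, of fenestrated vessels (-1.59 ± 0.30), and Egfl7 (-1.11 ± 0.36), while Cldn5 and Flt1 differed by -0.34 and 0.25. Emcn, measured on the control array alone, was at least 5.35-fold lower, and Eng, also measured there alone, was 1.68-fold lower by its bound. Tek and Esam went the other way: each was well above background in knockout epidermis alone, with log2 bounds of 0.38 and 0.01. Plvap was under 2-fold with normexp (-0.70). Egfl7 was under 2-fold with cyclic loess (-0.87), quantile normalization (-0.84), median scaling (-0.76) and normexp (-0.34). With the knockout signals scaled to the control array, the sum over the 13 endothelial markers was 500.1 in control and 182 in knockout epidermis. Without Vwf, the brightest of them, the sum was 264 and 137. Both sums were lower in knockout epidermis, as Cd34 was, and the part of endothelium in the Cd34 difference was not tested. The scaled sum over 10 dermal fibroblast markers was 3053 and 2700. Of 7 with a measured difference, none was 2-fold apart, 5 were below 0 and the median was -0.15, with Dcn, a collagen-binding proteoglycan gene, at -0.73. Of 6 mast cell markers with a probe, 4 were near background, with Cpa3 and Tpsb2 not well above it in either genotype. Cma1 and Mcpt4, measured on both arrays, differed by -0.91 ± 0.37 and 0.10 ± 0.39, both within 2-fold.

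Krt15, a type I keratin of bulge and basal cells, differed least under the 75th percentile scaling. Its signals were 45600 in control and 48200 in knockout epidermis (-0.14 ± 0.20). The unscaled signal was higher in knockout epidermis and the scaled difference was below 0. Its sign depended on scaling, at 0.21 under the median, 0.020 under quantile normalization and 0.019 under cyclic loess. Under median scaling Lrig1 and Nfatc1 were closer to 0 than Krt15, both at -0.09, as was Nfatc1 over the mean of probes, at -0.01. The basal keratins Krt5 and Krt14 differed by -0.16 and -0.24. All 10 genes of the basal epidermal list, which holds keratins, integrins and laminin chains among others, were within 2-fold at the probe that stands for the gene. Their median was -0.39, or -0.05 under median scaling. The integrin gene Itga3 differed by -0.73, the laminin genes Lama3 and Lamb3 by -0.56 and -0.55, and Itgb1 by -0.57, with a dimmer Itgb1 probe past 2-fold at -1.06.

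Lhx2, a LIM homeobox transcription factor that helps keep bulge cells at rest, had signals of 931 in control and 259 in knockout epidermis (-2.07 ± 0.20, 4.19-fold lower). The difference ranked 74 from the lowest of 12396 genes. Across the 9 alternatives the difference lay between -2.09 and -1.72, though those that choose or average probes could not change its 1 probe. Among 16 SOX and LIM homeobox relatives, 7 were not well above background in either genotype and 8 were measured on both. Those 8 had a median of 0.44, with 1 gene at least 2-fold higher and 0 lower. Over all 16 with no filter on background the median was -0.27, with 1 higher and 3 lower, and Lhx6, measured on the control array alone, had a log2 bound of -0.97. The higher gene was Sox4, an HMG-box factor with signals of 40.1 and 110 (1.24 ± 0.26), which was at 0.36 under normexp. Under median scaling 3 of the 8 were at least 2-fold higher, a setting in which 8.28% of all genes were. Ldb1, which encodes the cofactor that bridges LIM homeobox proteins, differed by 0.73, the LIM-only gene Lmo4 by 0.76, and Sox7 and Sox21 by 0.51 and 0.38.

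Sox9, an HMG-box transcription factor needed to set up the bulge, was read by 3 probes, all lower on the knockout array by different amounts. The probe that stands for the gene was printed on 10 spots, of which 8 were kept for the control and 9 for the knockout. Kept control spots ran from 984 to 1330 with a median of 1195, and kept knockout spots from 694 to 759 with a median of 724. The 2 sets of spots did not overlap, and the difference over the 8 spots kept on both arrays was -0.94 ± 0.12 (SD over spots, which are technical). The spots left out had signals of 372 and 363 at 1 position and 1920 on the control array at another. The second probe had signals of 1270 and 664 (-1.16 ± 0.20) and the dimmest had 84.0 and 17.6 (-2.48 ± 0.30). The gene is therefore just short of 2-fold by its repeated probe (1.92-fold) and past it by each of the others, and the mean over its probes was -1.52. Under median scaling the repeated probe was at -0.59, the second at -0.81 and the dimmest at -2.13. With normexp these 3 probes were at -0.76, -0.999 and -1.10.

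**Figure D2:**
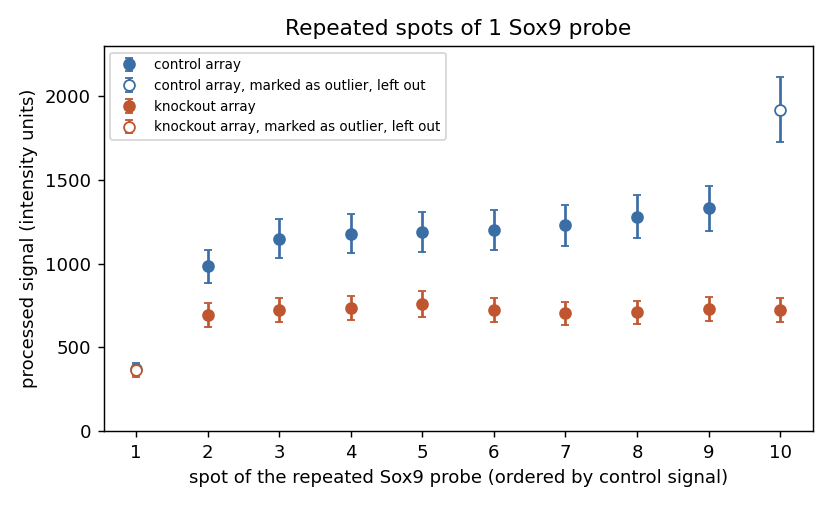
Processed signal (intensity units, linear axis from 0) of the 10 spots of the repeated Sox9 probe on each array, ordered by control signal, with bars for the scanner software's error and open circles for spots marked as outliers. Every kept control spot, 984 or higher, lies above every kept knockout spot, 759 or lower.

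Melanocytes can also make Sox9. Of 6 melanocyte markers with a probe, 3 had a measured difference and all 3 were at least 2-fold lower: Dct (-2.12), Tyrp1 (-2.05) and Pmel (-2.03), though Tyrp1 was at -0.93 under normexp. The scaled sum over the melanocyte list was 1789 in control and 422 in knockout epidermis, and Tyr was not well above background in either. The melanocyte factor Sox10 differed by -0.26 ± 0.29. The part of melanocytes in the Sox9 difference was not tested.

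Nfatc1 encodes a calcineurin-controlled transcription factor that acts downstream of BMP signals to hold bulge cells at rest. Its 2 probes, assigned to different RefSeq transcripts, went opposite ways. The brighter had signals of 112 in control and 96.0 in knockout epidermis (-0.44 ± 0.21), and the other had 69.6 and 108 (0.41 ± 0.22). Neither reached 2-fold, and the mean over both was -0.01. As a scale for such gaps, over 4069 genes with several measured probes, the span between a gene's probes had a median of 0.29 and a 90th percentile of 0.96. Of 16 further BMP, NFAT and calcineurin genes with a measured difference, 1 was at least 2-fold higher and 0 lower, with a median of 0.07 that was -0.05 over the mean of probes. Under median scaling 3 of the 16 were at least 2-fold higher, beside the same 8.28% of all genes. Id1, a BMP-induced inhibitor of bHLH factors, was the higher gene, with signals of 785 and 2840 (1.63 ± 0.20), and 762 and 2510 at its other probe. Bmp6, a ligand made in the niche and measured on the control array alone, was at least 4.32-fold lower, while Bmp4 differed by 0.69. The relatives Nfatc2 and Nfatc4 differed by -0.74 and -0.67, and the calcineurin subunit gene Ppp3r1 by -0.69, all within 2-fold.

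Tcf7l1, also called Tcf3, a TCF/LEF family repressor of the bulge, had signals of 99.7 in control and 66.2 in knockout epidermis (-0.81 ± 0.21). Its dim second probe had 18.8 and 15.5 (-0.50 ± 0.39). Both probes were lower and neither reached 2-fold. Its relatives Tcf7 and Tcf7l2 differed by 0.08 and -0.03, and Lef1, measured on the control array alone, was 2.34-fold lower by its bound.

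Lgr5 and Lgr6 are receptors for R-spondins, secreted proteins that strengthen Wnt signals. Lgr5 had a signal of 48.3 in control and 12.4 in knockout epidermis, where it was not well above background. It was 4.54-fold lower by its bound, which here equals the plain difference (-2.18 ± 0.39) and shares its error. The lowest probe well above background on that array had a signal of 12.1, so the Lgr5 spot lay at the limit of detection. With normexp its difference was -0.76, under 2-fold. Lgr6 had signals of 32.6 and 24.2 (-0.65 ± 0.28), within 2-fold, and between -0.66 and -0.30 across its alternatives.

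Lgr4, the third R-spondin receptor, had 3 measured probes at -0.26, -0.56 and -2.09, the last with signals of 63.4 and 17.3. Among 20 measured genes of the R-spondin receptor pathway, 1 was at least 2-fold higher and 0 lower, and the median was 0.07. The count of higher genes was 2 under median scaling, where it was 8.28% over all genes, and 0 under normexp. The higher gene was Axin2, a feedback inhibitor and Wnt target, with signals of 35.7 in control and 130 in knockout epidermis (1.64 ± 0.24, and 0.85 under normexp). The ubiquitin ligase genes Znrf3 and Rnf43, which remove Frizzled receptors, differed by 0.07 and 0.20. The receptor gene Fzd7 differed by 0.74, the feedback inhibitor gene Nkd1 by -0.70, the co-repressor gene Tle1 by 0.56 and the ligand gene Rspo4 by -0.40. R-spondin genes Rspo2 and Rspo3 were not well above background in either genotype.

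**Figure D3:**
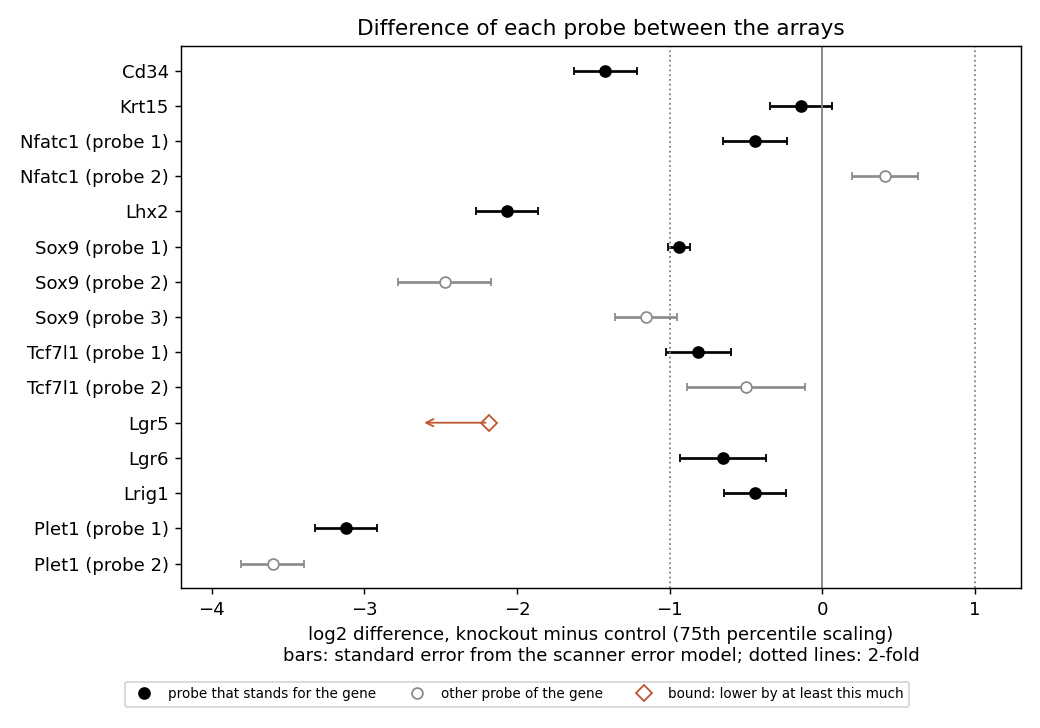
Log2 difference, knockout minus control, of each of the 15 probes (filled circles stand for the gene, open circles are its other probes, bars are standard errors from the scanner error model, the diamond with an arrow is a bound, and dotted lines mark 2-fold). Plet1 (-3.12 and -3.60), Lhx2 (-2.07) and Cd34 (-1.42) lie left of the 2-fold line at every probe, Sox9 on both sides of it, and the Nfatc1 probes on opposite sides of 0.

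Lrig1, a transmembrane protein of the junctional zone that limits ErbB receptor signals, had signals of 1990 in control and 1710 in knockout epidermis (-0.44 ± 0.20). It stayed within 2-fold and was at -0.09 under median scaling. None of 6 LRIG and ERBB genes reached 2-fold at the probe that stands for the gene, and their median was -0.26, or 0.09 under median scaling. Erbb3 and Lrig2 differed by -0.30 and -0.22. Egfr differed by -0.55 at that probe and by -0.77, -1.14 and -1.15 at its other probes, and Errfi1, a feedback inhibitor of EGFR, by -0.91 ± 0.20.

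Plet1 encodes a membrane-anchored protein of the upper isthmus and sebaceous duct, and it differed most among the 10 genes. Its brighter probe had signals of 26300 in control and 3520 in knockout epidermis (-3.12 ± 0.20, 8.70-fold lower). Its other probe had 2730 and 262 (-3.60 ± 0.20, 12.1-fold lower). Both probes were far lower on the knockout array. Plet1 ranked 16 from the lowest of 12396 genes and stood between -3.36 and -2.77 across its 9 alternatives.

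Other genes of the isthmus, infundibulum and junctional zone centred near 0. Among the 12 with a measured difference, 1 was at least 2-fold lower and 0 higher. Their median was -0.01, and it was above 0 under cyclic loess, quantile normalization, normexp and median scaling, the last with 1 gene at least 2-fold higher. The lower gene was Aqp3, a water and glycerol channel of basal keratinocytes, with signals of 17000 and 7330 (-1.43 ± 0.20). Krt79, a keratin of the upper follicle duct, had 18500 and 21300 (-0.02 ± 0.20). Sostdc1, a secreted BMP and Wnt modulator, differed by 0.74, the defensin gene Defb6 by -0.67, the activin and BMP antagonist gene Fst by 0.46 and the repressor gene Prdm1 by 0.43. Dcdc2a, measured on the control array alone, was more than 2-fold lower by its bound.

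Other bulge and hair germ genes differed both ways. Among 18 with a measured difference, 4 were lower and 2 higher by at least 2-fold, and the median was -0.53, or -0.18 under median scaling. Tbx1, a T-box factor of bulge cells, had signals of 754 and 184 (-2.26 ± 0.21), and the retinoic acid enzyme gene Aldh1a3 had 104 and 35.4 (-1.78 ± 0.23). Dkk3 (-1.10) and Foxc1 (-1.03), a forkhead factor of resting stem cells, were under 2-fold with median scaling (-0.76 and -0.68) and normexp (-0.65 and -0.90), and Dkk3 also with quantile normalization (-0.99). The integrin gene Itga6 differed by -0.98 and the P-cadherin gene Cdh3 by -0.93, within 2-fold, followed by Ccn2 (-0.86) and Sfrp1 (-0.60). Wif1, a secreted Wnt inhibitor measured on the control array alone, was at least 4.06-fold lower. The higher genes were Id2, with signals of 781 and 3130 (1.78 ± 0.20) and 1.69 at its other probe, and Axin2.

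**Figure D4:**
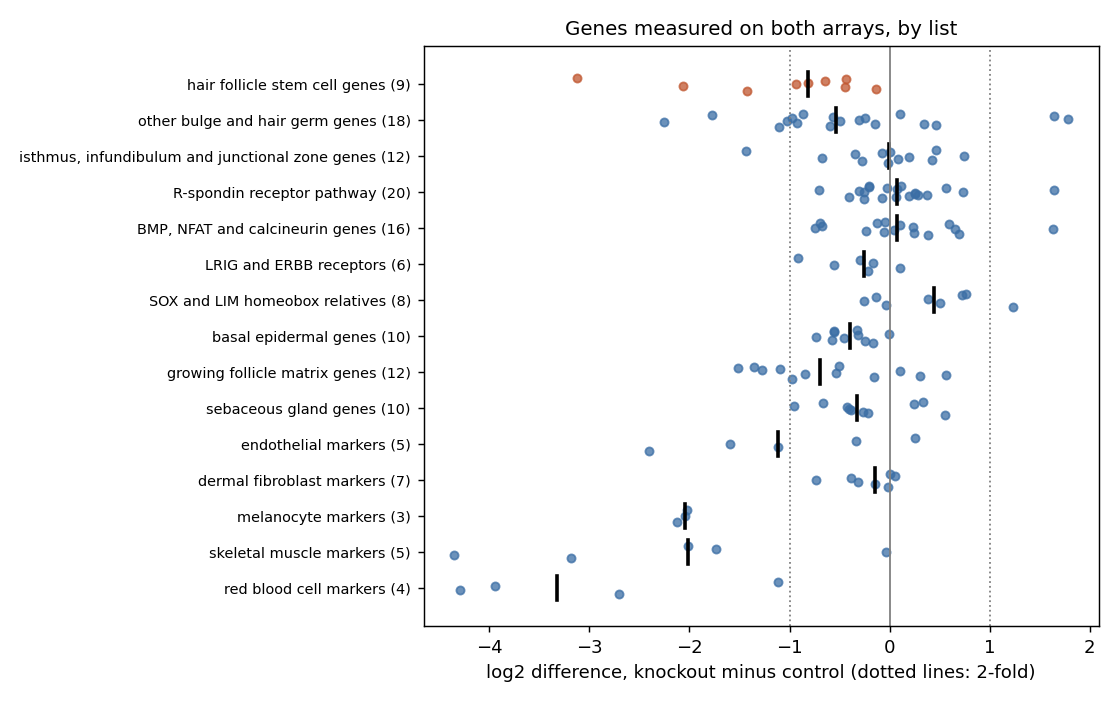
Log2 difference, knockout minus control, of every gene measured on both arrays in the 9 stem cell genes and in each comparison list with at least 3 such genes (points are genes, black bars are medians, dotted lines mark 2-fold, and the number of genes is in brackets). The stem cell genes have a median of -0.81 and none above 0, the isthmus list centres on -0.01, and the melanocyte, muscle and red blood cell markers centre on -2.05, -2.02 and -3.32.

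Markers of muscle and red blood cells were also lower on the knockout array. Of 9 skeletal muscle markers, 5 had a measured difference and 4 of these were at least 2-fold lower, or 3 under normexp, where Tnnt3 was at -0.80. The scaled sum over that list was 1146 and 315. All 4 measured red blood cell markers were at least 2-fold lower, with a median of -3.32 and scaled sums of 18372 and 1842, though Slc4a1 (-1.11) was at least 2-fold lower under 5 of its 9 alternatives. Of 9 dermal papilla markers, 6 were not well above background in either genotype, among them Corin and Sox2. The scaled sum over that list was 431 and 450.4, and without Bmp4 it was 198 and 72.8. Crabp1, measured on the control array alone, was at least 9.07-fold lower. The part of these cells in the differences of the stem cell genes was not tested.

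The place of the members' spots on the slide was checked. Each of the 24 spots had 11 to 33 measured neighbours within 3 rows and 3 columns, whose median difference lay between -0.38 and 0.33. No member spot had more than 1 neighbour at least 4-fold lower, and 1 Sox9 spot lay near a spot marked as non-uniform. The 5 spots of Plet1, Lhx2, Cd34 and Lgr5 had no such spot near them.

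**Figure D5:**
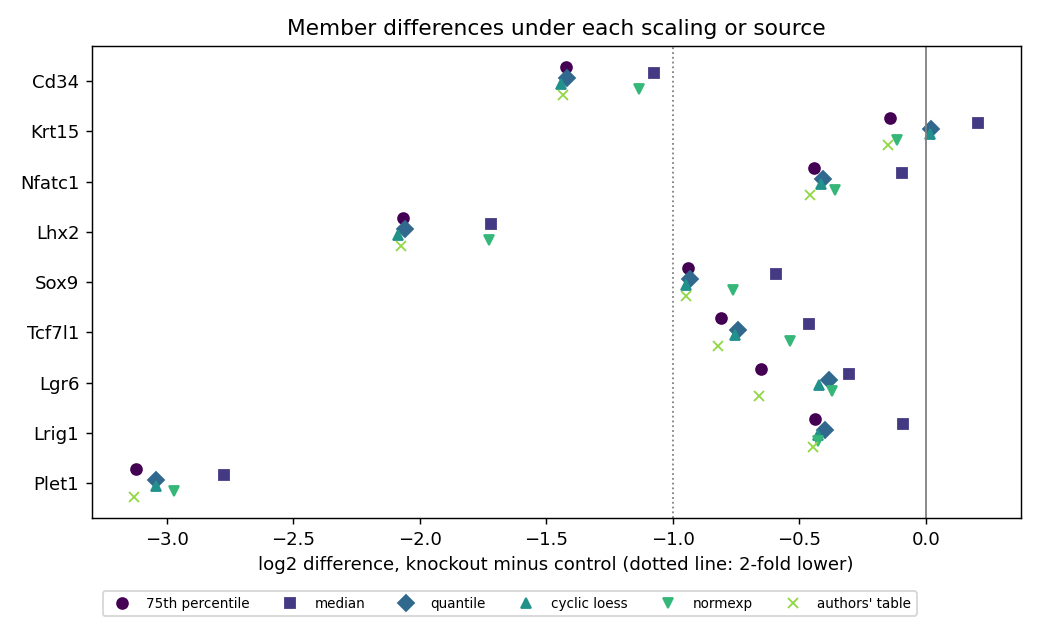
Log2 difference, knockout minus control, of the 9 genes measured on both arrays under the 75th percentile and the alternative scalings, under normexp and in the authors' deposited table (symbols are settings, the dotted line marks 2-fold lower). Plet1, Lhx2 and Cd34 lie left of the line under each setting plotted, and Krt15 falls on both sides of 0, at -0.14 and, under median scaling, 0.21.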

How the data were processed

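Peeled epidermis of 2 genotypes was measured on 2 one-colour arrays from 1 slide, scanned on 1 day, per the file headers. The deposited scanner files hold spot intensity on a linear scale from Agilent Feature Extraction 10.7.3.1, background-subtracted and detrended within the array per the file headers. A deposited table of log2 values, centred per probe by the authors, matched the scanner differences (Pearson r 1.00 across probes).

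Spots marked as outliers and control spots were left out, log2 signals of a probe's spots were averaged, and each array's 75th percentile over probes was subtracted. Of 41134 probes, 64.8% were named by RefSeq accession (table of GRCm38.p6, used for names). The probe whose mean scaled signal is highest stands for a gene, which counts as measured where it is well above background and not saturated. A gene dim on 1 array has a bound under the 75th percentile scaling. It is taken from the bright value and either the dim probe's own signal or the lowest one well above background, whichever is higher. A bound from the probe's own signal equals the plain difference and shares its error.

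The members, lists and naming rule (all members, and in each list genes past 2-fold and the 4 next largest differences) were chosen with earlier results of these data known. In the dermal fibroblast, dermal papilla, skeletal muscle and red blood cell lists, not all of these genes are named. Bounds, second probes, genes named for their role (Krt5, Krt14, Krt79, Lgr4, Tcf7, Tcf7l2, Znrf3, Rnf43, Sox10) and genes not well above background fall outside the rule and were chosen after their values were seen. Sums over marker lists use knockout signals scaled to the control array's 75th percentile. With 1 array per group no p-value was computed. The calling code was tested on simulated data. Tools were limma 3.58.1 (R 4.3.3, for alternatives) and, for the rest, matplotlib 3.10.9, pandas 2.3.3, numpy 2.4.6 and Python 3.11.15. Normexp was run on median spot signals without non-uniform spots, a choice made after seeing the data.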

Additional observations from a re-analysis of the deposited data

How the results depend on the processing

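No paired analysis was possible because the groups hold 1 array apiece. The count of 3 stem cell genes at least 2-fold lower was 3 under cyclic loess, quantile normalization, median scaling, normexp and the authors' deposited table. It was 4 with the mean over probes, with the probe of highest control signal and with outlier spots kept, where Sox9 was added, and 4 with no filter on background or with bounds counted, where Lgr5 was added. It was 6 at 1.5-fold and 2 at 3-fold, where 13.2% and 1.52% of all genes were lower. The count of genes at least 2-fold higher was 0 under each of these settings. The median difference of -0.81 stayed below 0, from -0.46 under median scaling to -0.88 with Lgr5 at its bound. Over all genes, those at least 2-fold higher and lower numbered 376 and 544, against 1027 and 281 with median scaling, 184 and 228 with normexp, and 669 and 1414 when dim probes were kept. Of 1323 single-gene values under alternatives, 39 moved beyond the interval of the scanner's error model. Of these, 18 were under normexp and 11 under median scaling, and 0 genes past 2-fold changed sign. The count is no measure of stability. Median scaling shifted every gene by 0.35, which lies within that interval for any probe on 1 spot. Settings that choose or average probes could not change genes with 1 probe. Leaving out Plet1, the shares at other folds, the scaled sums and the spots used for normexp were chosen after seeing the data. Signal over background limits Lgr5, Lgr6 and the dim probes of Tcf7l1 and Sox9. The number of arrays limits the precision.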

Other observations

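Genes of the growing follicle and of the sebaceous gland, whose cells come from these stem cell pools, were also read. Among 12 growing follicle matrix genes with a measured difference, 4 were lower and 0 higher by at least 2-fold, and the median was -0.69, or -0.35 under median scaling. All 4 encode proteins of the inner root sheath, the layer that moulds the hair: Krt27 had a control signal of 3520 and a knockout signal of 1430 (-1.52 ± 0.20), Tchh 8590 and 3900 (-1.36 ± 0.20), Krt71 16900 and 8120 (-1.28 ± 0.20) and Krt25 2260 and 1230 (-1.10 ± 0.20). Krt71 and Krt25 were under 2-fold with median scaling, at -0.93 and -0.75, and Krt25 also with normexp, at -0.96. The homeobox gene Msx2 differed by -0.97, the companion layer keratin Krt75 by -0.85, the homeobox gene Dlx3 by 0.57 and the cortex keratin Krt35 by -0.54. Shh, a signal of the growing follicle, was not well above background in either genotype.

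None of 10 sebaceous gland genes measured on both arrays reached 2-fold, and their median was -0.32, or 0.02 under median scaling. Elovl3, a fatty acid elongase, differed by -0.95 ± 0.29, Cidea by -0.66, the desaturase gene Scd1 by 0.55 and Soat1 by -0.43.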
